A study of Xenopus laevis with 31 samples.

Results

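The transcripts described here are 53 probe sets of an Affymetrix Xenopus laevis array whose signal was higher in gastrulae injected with morpholinos against Sox17 than in control gastrulae. They were chosen by their measured values. The mean of the Sox17-MO arrays had to exceed the mean of the stage 11 control arrays by at least 0.6 on the log2 scale, and the lowest Sox17-MO array had to lie above the highest control array. In addition, the means of the Vegetal endoderm and animal cap explants had to lie within 1 log2 unit of each other. The rule kept 53 of 15491 probe sets, or 0.342%, and these fall in 52 sequence clusters as the probe set names give them. The comparison of Sox17-MO with control embryos, and that of vegetal with animal explants, are therefore given below as descriptions, and no call or p-value of theirs is used as evidence.

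Sox17 proteins are HMG-box transcription factors made in the vegetal cells of the frog embryo in response to nodal-related signals, and they are required for the formation of endoderm, the germ layer of gut, liver and pancreas. A morpholino is a synthetic oligonucleotide that blocks translation or splicing of the RNA it pairs with. Mixer is a homeodomain factor that lies between nodal-related signals and the endoderm genes, and Cerberus-Short is a fragment of the secreted protein Cerberus that binds nodal-related ligands and blocks them. The frog egg is loaded with maternal RNAs, many of which are cleared after the embryo's own genome is switched on, so a transcript's level in the egg and at later stages places it between maternal supply and zygotic transcription.

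The series holds 31 arrays in 9 groups. The control embryos at stage 11, a mid-gastrula stage, were on 9 arrays. Sox17-MO embryos, on 3 arrays, had received 3 morpholinos, against Sox17a1, Sox17a2 and Sox17b, at 20 ng each. Mixer-MO embryos, on 2 arrays, had received 40 ng of a Mixer morpholino, although the title of replicate 1 gives 32 ng. Cerberus-Short embryos, on 3 arrays, had received 1 ng of RNA. All injections were made vegetally at the 2-cell stage and the embryos were collected at stage 11. Explants at the same stage were animal caps (3 arrays, cut at stage 9), Equatorial tissue (2 arrays) and Vegetal endoderm (2 arrays). Eggs, labelled stage 1, were on 3 arrays and control embryos at stage 18, a neurula stage, on 4. Each array was made from a pool of about 20 sibling embryos or 50 explants. No group injected with a control oligonucleotide or RNA was among the samples, so an effect of injection and the loss of Sox17 cannot be told apart. Which samples came from one mating is not given, and the p-values below therefore measure the spread between these samples. Unless stated otherwise, that spread is pooled over all 9 groups and each array is taken as independent.

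Values are log2 of the deposited intensity, which has no unit beyond the array's own scale, and a difference of 1 is a 2-fold change. Array medians ran from 65.3 to 77.7 intensity units over the 9 groups. The annotation at hand named no gene for any of the 15491 probe sets, so the members are named by probe set, no role is given to them, their sequences are not shown, and neither the targeted genes nor tissue markers were checked. The array titles carry a letter, a possible batch, and each Sox17-MO array shares its letter (C, f or G) with a control array. Residuals of the arrays that share a letter correlated at 0.74 (C), 0.73 (f) and 0.61 (G). The tests below do not adjust for the letter unless stated otherwise. In whole embryos, a higher signal from more cells of a type and from more RNA per cell cannot be told apart.

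Most members had modest differences and a few had large ones. The difference of means ran from 0.61 to 2.33 on the log2 scale, that is 1.52- to 5.01-fold, with a median of 0.91 (1.88-fold). It was over 2-fold for 18 members and under 2-fold for 35. The distance from the highest control array to the lowest Sox17-MO array had a median of 0.18. It was under 0.1 for 18 members and over 0.5 for 6. The spread between arrays was of a similar size in both groups, with a median SD over the members of 0.27 in Sox17-MO (n = 3) and 0.33 in the controls (n = 9). The rule used these same arrays, so nothing is read from this likeness. The SD of the Sox17-MO arrays was over 0.5 for 9 members.

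The probe set Xl.15745.1.A1_at had the largest difference. Its log2 signal was 9.88, 8.78 and 10.30 in Sox17-MO replicates 1, 2 and 3, while the 9 controls had a lowest, median and highest value of 6.45, 7.43 and 7.99. The lowest Sox17-MO array was thus 0.79 above the highest control, and the means of 9.66 ± 0.79 (SD, n = 3) and 7.33 ± 0.48 (SD, n = 9) differed 5.01-fold. Its difference was alike within the letters, at 2.45 in C, 2.33 in f and 2.57 in G. The signal in eggs (6.81 ± 0.85, n = 3) and at stage 18 (6.77 ± 0.45, n = 4) was not far from that of the controls, and no other group had a mean above 7.82, that of the animal caps. The animal caps were spread, at 6.94, 8.89 and 7.61, and replicate 2 lay above Sox17-MO replicate 2.

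The second member by size, Xl.4515.1.S2_a_at, was uneven among the Sox17-MO arrays, at 8.24, 10.49 and 10.40. Replicate 1 was only 0.05 above the highest control (lowest, median and highest control 6.33, 7.43 and 8.20). The means, 9.71 ± 1.27 (SD, n = 3) and 7.45 ± 0.64 (SD, n = 9), differed 4.78-fold.

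Xl.490.1.S1_at, the third, had a mean of 5.02 or less in all groups but Sox17-MO. It read 6.19, 5.91 and 7.28 in the Sox17-MO arrays and 3.89, 4.25 and 4.97 as the lowest, median and highest control. The means of 6.46 ± 0.73 (SD, n = 3) and 4.27 ± 0.36 (SD, n = 9) differed 4.55-fold, and the gap of 0.94 between the nearest arrays was the widest of all 53 members. One of the Vegetal endoderm arrays, at 6.00, lay within the range of the Sox17-MO arrays, and the other read 4.04. Xl.490.1.S1_at was a dim probe set. With 16 added to every intensity its log2 difference was 1.56, against 2.19 without.

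A pair of members with high signal had differences of 4.00- and 3.24-fold. Xl.4276.1.S1_at read 11.06, 11.51 and 11.22 in Sox17-MO against 8.48, 9.28 and 10.21 as the lowest, median and highest control, and its means were 11.26 ± 0.23 (SD, n = 3) and 9.27 ± 0.57 (SD, n = 9). Xl.6282.1.S1_at read 11.41, 11.15 and 11.37 in Sox17-MO against 7.68, 9.73 and 10.50 in the controls, with means of 11.31 ± 0.14 (SD, n = 3) and 9.62 ± 0.89 (SD, n = 9). Of their values on the 31 arrays, 3 for Xl.4276.1.S1_at and 1 for Xl.6282.1.S1_at could be read at more than one scale and were assigned from the other arrays. For both, the Sox17-MO arrays lay close together and the controls were spread widely.

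Of the next members, Xl.3659.1.S1_at was at 9.60, 8.89 and 9.16 in Sox17-MO and at 6.12 to 8.54, median 7.80, in the controls, a 3.08-fold difference of means. Xl.20493.1.S1_at was at 8.28, 8.68 and 8.96 against 6.11 to 7.87, median 7.14, a 2.83-fold difference. Xl.12978.1.A1_at was at 5.06, 4.72 and 6.60 against 3.61 to 4.36, median 3.95. Its 2.80-fold difference rested in part on replicate 3, and was 0.91 on the log2 scale without that array against 1.48 with it. Xl.12978.1.A1_at was also dim, and its difference was 0.96 with 16 added to every intensity. Xl.19735.1.S1_at was at 7.95, 8.62 and 8.81 against 6.40 to 7.52, median 7.01, a 2.71-fold difference. Xl.21286.1.S1_at was at 7.35, 6.98 and 8.19 against 5.29 to 6.70, median 6.30, a 2.52-fold difference. The gaps between the groups were 0.27 to 0.43 for these 5 members. By contrast, Xl.24212.1.A1_at, at 8.81, 9.10 and 9.31 against 6.18 to 8.80 (median 7.96), and Xl.6226.1.S1_at, at 7.91, 8.59 and 8.51 against 6.44 to 7.88 (median 7.05), nearly touched the controls, with gaps of 0.01 and 0.03 behind differences of 2.59- and 2.35-fold.

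**Figure D1:**
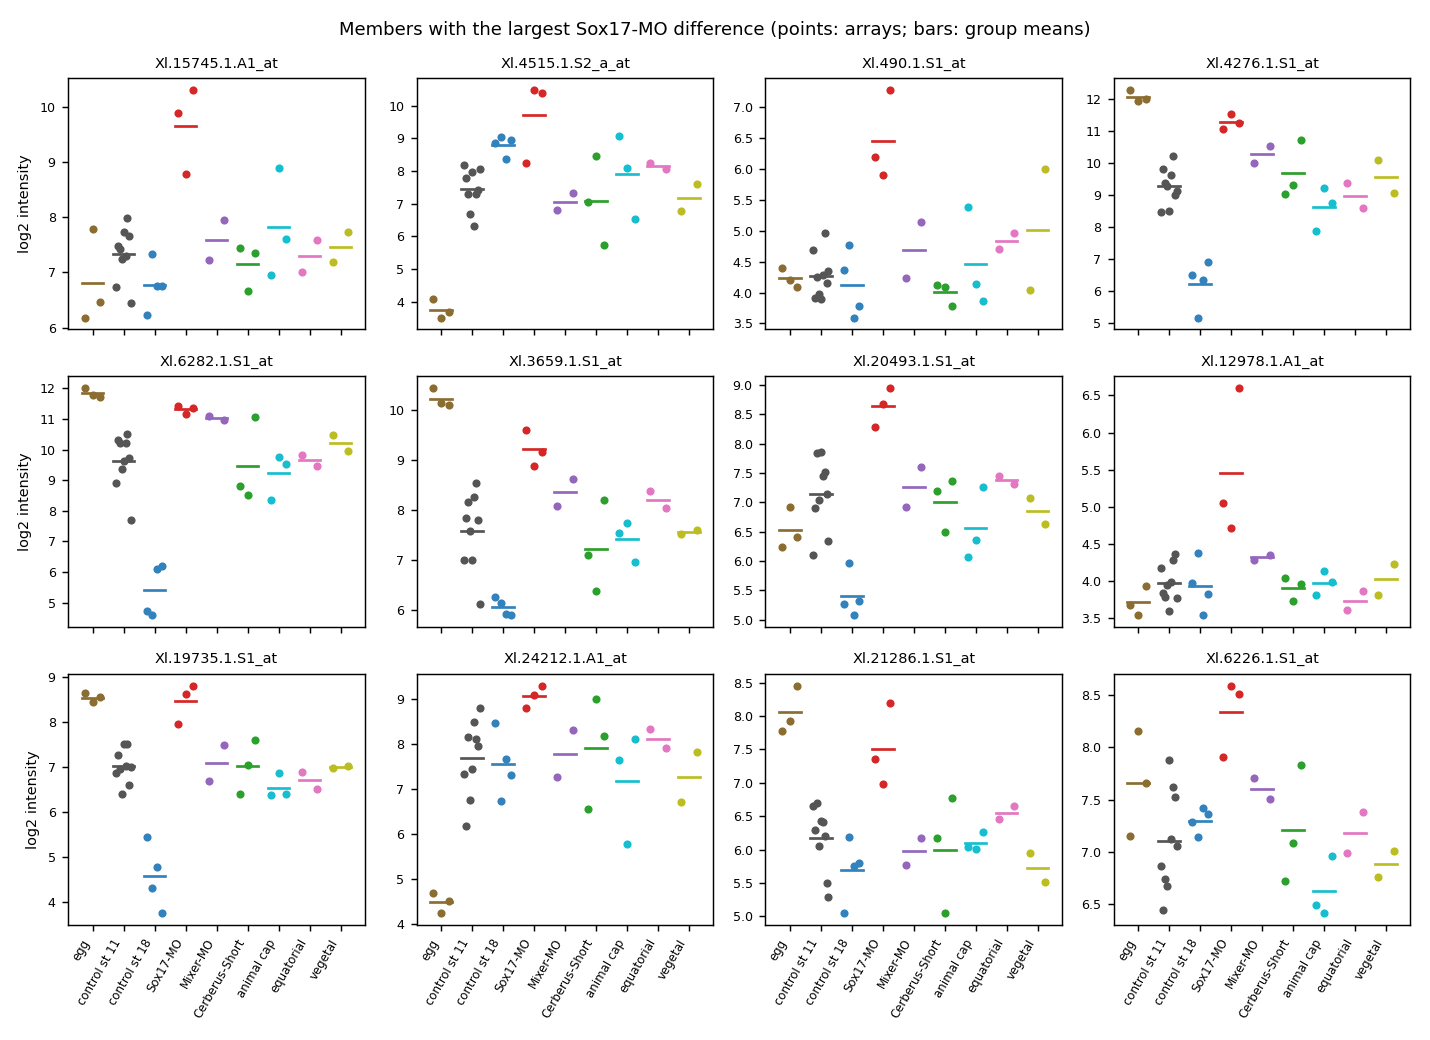
Log2 signal (vertical axis) of the members with the largest Sox17-MO difference on every array, by group (horizontal axis); each point is 1 array and each bar a group mean. The Sox17-MO points of every panel lie above all 9 stage 11 controls, as the rule requires. The eggs lie above, among or below the controls depending on the probe set.

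The most abundant members had smaller differences. Xl.702.1.S1_a_at and Xl.702.1.S1_at, which share a cluster, had control means of 10.80 ± 0.42 and 10.73 ± 0.39 (SD, n = 9). In the Sox17-MO arrays the former read 11.54, 11.38 and 11.60 and the latter 11.63, 11.60 and 11.67, for differences of 0.71 and 0.90. Xl.3189.2.A1_at read 10.92, 11.36 and 11.14 against 10.02 to 10.68 in the controls, and Xl.1779.1.S1_at read 10.47, 10.35 and 10.58 against 9.44 to 9.99. Over all members the control level ran from 2.97 to 10.80 with a median of 7.00, against a median of 6.18 over all probe sets, and 34 of the 53 lay above that median. A filter that removes the lowest 40% of probe sets by mean signal would keep 43 members and drop 10. Among those dropped are Xl.490.1.S1_at, Xl.12978.1.A1_at, Xl.975.1.S1_at, Xl.20488.1.S1_at and Xl.26326.1.A1_at.

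At the edge of the rule lay members such as Xl.24043.1.S1_at, Xl.26326.1.A1_at and Xl.2279.1.S1_at, with differences of 0.64, 0.62 and 0.61. Just outside it were Xl.13504.1.S1_at, Xl.14128.1.A1_at and Xl.16601.1.A1_at, which met the other conditions and differed by 0.59 each. The inner and outer probe sets overlapped in their gaps, which were 0.22, 0.18 and 0.09 inside and 0.12, 0.04 and 0.14 outside.

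By limma, 21 of the 53 members passed an adjusted p of 0.05 for Sox17-MO over control, where 0.258% of all probe sets were called higher, and 0.942% of all probe sets had no overlap in this direction. Since the members were selected on this contrast, nothing is read from the count. It depended on single arrays: it was 11 without Sox17-MO replicate 1, 5 without replicate 2, 0 without replicate 3 and 13 without control replicate 2. The list itself was also wider with fewer arrays, since the rule kept 238, 127 or 87 probe sets without Sox17-MO replicate 1, 2 or 3.

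The 3 Sox17-MO arrays did not contribute equally. Replicate 3 was the highest of the 3 for 31 members and the lowest for 2. Replicates 1 and 2 were each the highest for 11 and were the lowest for 23 and 28. Each Sox17-MO array was also set against the control of its own letter, a difference that the rule makes positive for every member. Its median was 0.72 for letter C (0.09 to 2.45), 0.93 for f (0.12 to 3.47) and 1.05 for G (0.34 to 3.39). For 25 members all 3 differences reached 0.6.

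**Figure D2:**
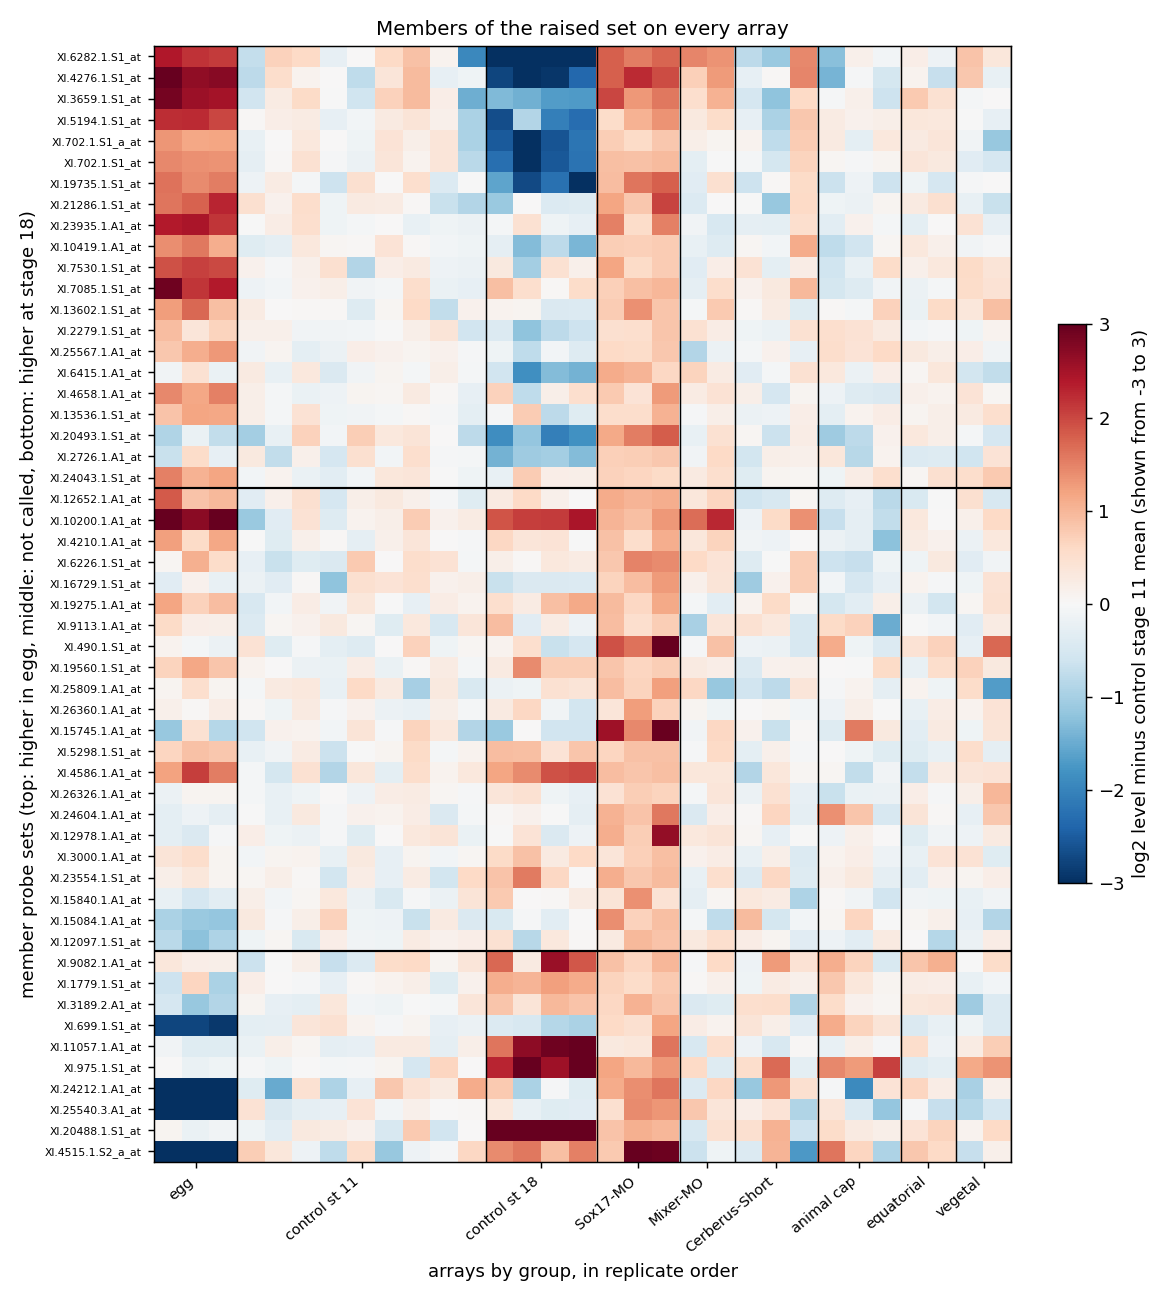
Log2 signal minus the mean of the stage 11 controls (colour) for the 53 members (1 per horizontal line) on all 31 arrays (columns, by group). The 3 Sox17-MO columns are high throughout because of the rule. In the egg columns many members lie near the controls, others far above them and a few far below.

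Signal over the whole list was shifted in few other arrays. The median over the members of the array's signal minus the control mean was 0.84, 0.87 and 1.03 in the Sox17-MO arrays. Among the 9 controls it ran from -0.13 in replicate 4 to 0.25 in replicate 7. In the explants it lay between -0.04 and 0.15. The eggs were at 0.38, 0.54 and 0.22, and Mixer-MO replicate 2 at 0.36. That array and control replicate 7 share the letter J.

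The Affymetrix control probe sets for the 3' and 5' ends of GAPDH and β-actin are meant as a measure of RNA quality. For β-actin the 5' signal was the higher on most arrays, which limits its use as such a measure. The 3' minus 5' log2 difference for GAPDH was 0.92, 1.80 and 1.97 in the Sox17-MO arrays, and 1.65, 3.04 and 2.47 in the controls of the same letters, so that it was lower in Sox17-MO for each letter. Over all 9 controls it ran from 1.65 to 3.90, so that Sox17-MO replicate 1 lay below every control. For β-actin the difference was -3.38, -2.27 and -2.44 in the Sox17-MO arrays, and -2.95, -0.39 and -2.68 in the controls of the same letters. It was thus lower in Sox17-MO for C and f and higher for G. The range over all 9 controls, -3.71 to 0.90, contained that of Sox17-MO. The part of these differences in the members' signal was not tested.

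**Figure D3:**
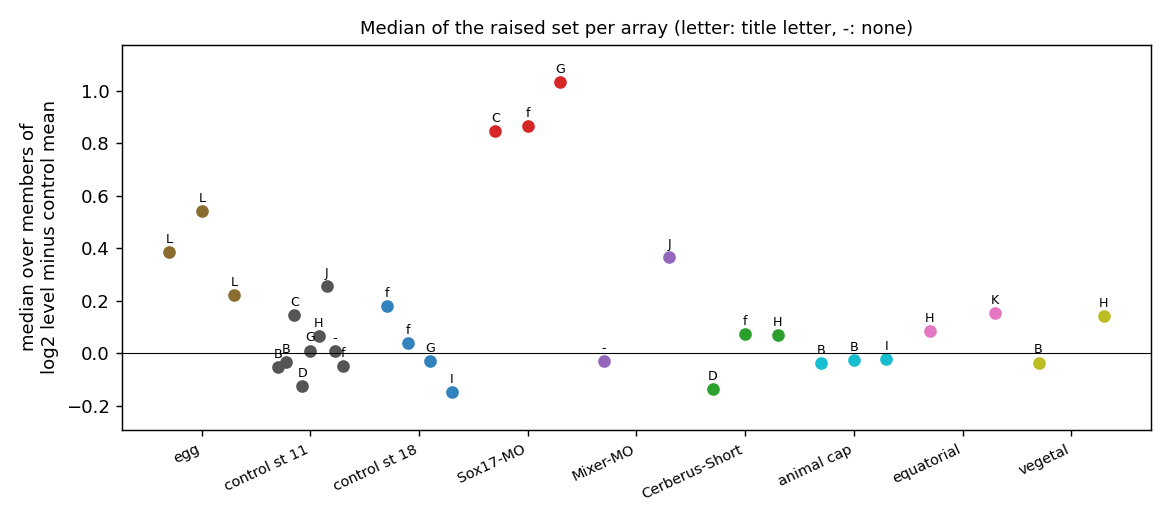
Median over the 53 members of the log2 signal minus the stage 11 control mean (vertical axis) for each of the 31 arrays, grouped by sample group and marked by title letter. The Sox17-MO arrays lie at 0.84 to 1.03 by construction, the controls at -0.13 to 0.25, and Mixer-MO replicate 2 at 0.36.

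The egg and stage 18 arrays were not used by the rule, and they allowed a test of when the members' transcripts are abundant in normal development. The p-values of this test pool the spread of all 9 groups, those of the rule included. A change was called at an adjusted p below 0.05 by limma and at least 2-fold. By this measure 21 members (39.6%) were higher in the egg than at stage 18, against 21.9% of all probe sets. In the other direction, 10 members (18.9%) were higher at stage 18, against 19.1% of all, and 22 were not called either way. The median difference of stage 18 minus egg was -0.24 over the members and 0.02 over all probe sets. It was -0.79 with the filter on low signal, which leaves 43 members, -0.14 without the probe sets that hold assigned values, -0.37 without stage 18 replicate 4 and -0.36 without egg replicate 1. Whether the members differ from other probe sets in this was not tested. The shares and medians were not matched for signal level, and the members' median control level was 7.00 against 6.18 over all probe sets. Medians over all probe sets under the alternatives are not given. For comparison, the 170 probe sets that meet the mirror image of the rule, lower in Sox17-MO, held 43 higher in the egg and 47 higher at stage 18, with a median of 0.02.

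Several members with large Sox17-MO differences were abundant in the egg and had fallen by the neurula. Xl.6282.1.S1_at read 12.02, 11.78 and 11.71 in the eggs and 4.73, 4.58, 6.11 and 6.20 at stage 18. It was lower at stage 18 by 86.2-fold (log2 -6.43, SE 0.57, adjusted p = 7.67e-10), and the groups were far apart. Xl.4276.1.S1_at read 12.27, 11.92 and 11.99 in the eggs and 6.51, 5.19, 6.35 and 6.91 at stage 18, a 56.5-fold fall (log2 -5.82, SE 0.44, adjusted p = 4.38e-11). Its Sox17-MO mean of 11.26 lay 2.00 above the gastrula controls and 0.80 below the eggs.

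Xl.3659.1.S1_at fell 18.1-fold, from 10.45, 10.15 and 10.10 in the eggs to 6.26, 6.15, 5.93 and 5.89 (log2 -4.18, SE 0.42, adjusted p = 5.82e-09). Xl.5194.1.S1_at fell 17.4-fold, from 10.62, 10.64 and 10.40 to 5.74, 7.53, 6.35 and 6.12 (log2 -4.12, SE 0.35, adjusted p = 4.67e-10). In Sox17-MO gastrulae Xl.5194.1.S1_at was at 8.96, 9.45 and 9.74, between the controls (7.44 to 8.79) and the eggs, with no overlap on either side. The abundant pair Xl.702.1.S1_a_at and Xl.702.1.S1_at fell 17.1- and 16.4-fold from egg means of 12.02 and 12.12, and again the Sox17-MO means, 11.51 and 11.63, lay between egg and control.

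Among the 21 members higher in the egg, the egg mean was above the gastrula control mean for 19 and the stage 18 mean was below it for 17, and for 15 the control lay between the other two. The median levels were 8.69 in the egg, 7.45 in control gastrulae and 6.24 at stage 18. Taken member by member, the Sox17-MO mean was below the egg mean for 18 of the 21, and the difference of Sox17-MO minus egg had a median of -0.53, from -1.60 to 2.12. Since the class was formed by high egg values and the members by high Sox17-MO values, this position is a description and was not tested.

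Of the members higher at stage 18, the 4 with the largest change were dim in the egg. Under the alternatives run, the lowest log2 change was 3.97 for Xl.4515.1.S2_a_at, 3.21 for Xl.20488.1.S1_at, 3.24 for Xl.25540.3.A1_at and 2.42 for Xl.24212.1.A1_at. Xl.4515.1.S2_a_at rose 33.2-fold, from 4.07, 3.52 and 3.68 in the eggs to 8.87, 9.03, 8.36 and 8.96 (log2 5.05, SE 0.58, adjusted p = 5.57e-08). Its control gastrulae were already at 7.45 on average, and Sox17-MO replicates 2 and 3 were above every stage 18 array. Xl.20488.1.S1_at rose 16.1-fold, from 4.41, 4.13 and 4.21 to 7.37, 9.54, 8.05 and 8.05 (log2 4.00, SE 0.39, adjusted p = 3.26e-09). This member was near its egg level in control gastrulae (3.74 to 5.10) and at only 5.16, 5.39 and 5.31 in Sox17-MO, far below stage 18.

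Xl.25540.3.A1_at rose 13.7-fold, from 5.11, 4.69 and 5.17 to 9.24, 8.70, 8.55 and 8.58 (log2 3.77, SE 0.32, adjusted p = 5.09e-10), and was at 9.41, 10.34 and 10.25 in Sox17-MO, above all stage 18 arrays. Xl.24212.1.A1_at rose 8.38-fold, from 4.70, 4.25 and 4.52 to 8.48, 6.75, 7.67 and 7.33 (log2 3.07, SE 0.59, adjusted p = 7.85e-05). Of the 10 members of this class, the Sox17-MO mean was below the stage 18 mean for 5 and above it for 5. The median levels were 4.83 in the egg, 7.58 in control gastrulae and 8.06 at stage 18. Member by member, Sox17-MO minus stage 18 had a median of -0.19.

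The Sox17-MO difference, bounded below by the rule, had a median of 0.90 in the 21 members higher in the egg, 0.91 in the 10 higher at stage 18 and 0.93 in the 22 not called, and nothing is read from these values. The last class had medians of 6.83 in the egg, 6.22 in control gastrulae and 6.80 at stage 18. It includes Xl.15745.1.A1_at, Xl.490.1.S1_at, Xl.12978.1.A1_at and Xl.6226.1.S1_at. All eggs carry the title letter L, so that stage and letter cannot be told apart in this comparison. The GAPDH 3' minus 5' difference was 1.94 to 2.33 in the eggs and 1.84 to 3.60 at stage 18, and its part in these calls was not tested.

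**Figure D4:**
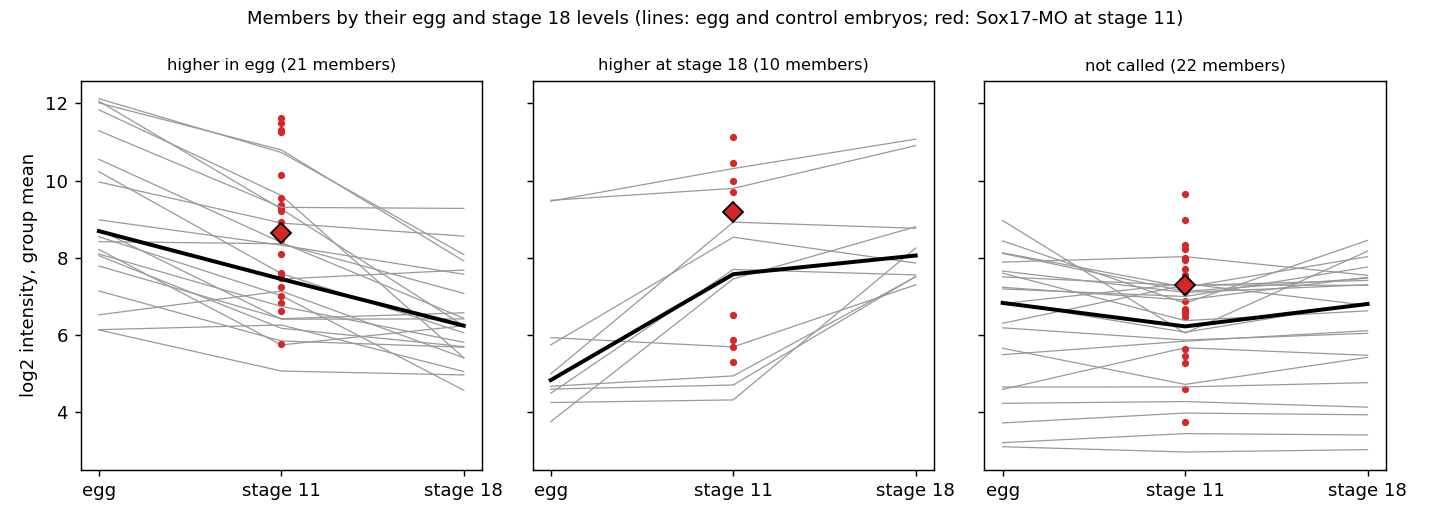
Log2 signal (vertical axis) of the members in eggs, stage 11 controls and stage 18 controls (horizontal axis), in panels for the 21 members higher in the egg, the 10 higher at stage 18 and the 22 not called, with the Sox17-MO means at stage 11 in red; the thick line and the diamond are medians. In the first panel the control median falls from 8.69 in the egg to 7.45 at stage 11 and 6.24 at stage 18.

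Single arrays of other groups were also shifted. For the members higher in the egg, the median distance from the control mean was -0.24 in control replicate 9, where 20 of the 21 were below that mean, and 0.27 in control replicate 7, where 19 of 21 were above it. It reached 0.43 in Mixer-MO replicate 2 and 0.50 in Cerberus-Short replicate 3, against 0.80, 0.80 and 0.99 in the Sox17-MO arrays and 1.45, 1.42 and 1.35 in the eggs. In control replicate 7 and Mixer-MO replicate 2 the other members were shifted too: the 22 not called had medians of 0.25 and 0.37 there and the 10 higher at stage 18 had 0.16 and 0.25. In control replicate 9 the other classes had medians of 0.02 and 0.16, and in Cerberus-Short replicate 3 of -0.02 and -0.31, in the same order. Differences between the classes were not tested. Control replicate 9 carries the letter f, as does Sox17-MO replicate 2.

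Mixer-MO and Cerberus-Short embryos, in which other steps of endoderm formation were targeted, gave the members' levels under those treatments. Both comparisons with the stage 11 controls share those 9 arrays with the rule, so their values are set beside those of Sox17-MO as a description. With Cerberus-Short, no member was called in either direction by limma, where 0.0129% of all probe sets were called higher and 0.316% lower. At an unadjusted p below 0.05 there were 3 members, against 2.09% of all probe sets. The differences ran from -0.37 to 0.65 with a median of -0.03 (0.01 over all probe sets), and 22 of the 53 were above 0. This median was 0.03 without Cerberus-Short replicate 1 and -0.09 without replicate 3.

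The Cerberus-Short arrays overlapped the controls for all 53 members, where 0.0646% of all probe sets had every Cerberus-Short array above the controls and 0.491% had every one below. Within the 3 letters that this group shares with control arrays, 10 members were higher in each (14.0% of all probe sets) and 3 were lower in each (9.32%).

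With Mixer-MO the differences from the controls ran from -0.52 to 1.97, with a median of 0.15 (-0.01 over all probe sets), and 37 members were above 0. The 2 arrays were unlike each other: the median was 0.36 without replicate 1 and -0.03 without replicate 2, and 25 members were above the control mean in replicate 1 against 42 in replicate 2. In control replicate 7, which shares the letter J with Mixer-MO replicate 2, 43 members were above that mean. With the letter as a fixed block the median difference was 0.07. The GAPDH 3' minus 5' difference of the 2 Mixer-MO arrays was 1.79 and 3.60 and that of β-actin -2.68 and 1.49, and the part of this in the members' signal was not tested. Both Mixer-MO arrays were above all 9 controls for 3 members, Xl.6282.1.S1_at, Xl.10200.1.A1_at and Xl.12097.1.S1_at, where 2.72% of all probe sets were, and both were below for Xl.3189.2.A1_at, where 2.44% were. A single member, Xl.10200.1.A1_at, passed the limma test, where 0.0387% of all probe sets were called higher and 0.0258% lower.

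That member, singled out after its values were seen, read 7.72 and 8.32 in Mixer-MO, 7.06, 6.95 and 7.36 in Sox17-MO, 5.90, 6.63 and 7.42 in Cerberus-Short and 4.94 to 6.80, median 6.18, in the controls. Both Mixer-MO arrays were above every Sox17-MO, Cerberus-Short and control gastrula. The Mixer-MO difference was 3.92-fold (log2 1.97, SE 0.33, adjusted p = 0.0173) and that of Sox17-MO 2.11-fold. Within letter J, Mixer-MO exceeded the control by 1.52. Without Mixer-MO replicate 1 or 2 the adjusted p was 0.210 or 0.49, and it was 0.164 when only the groups compared were fitted. In eggs and at stage 18 Xl.10200.1.A1_at was at 8.96 ± 0.19 (SD, n = 3) and 8.17 ± 0.24 (SD, n = 4).

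Mixer-MO and Cerberus-Short were also compared with each other. Their difference of means uses none of the arrays of the rule. Its SE and p-value pool the spread of all 9 groups, those of the rule included. No member was called by limma, where 0.187% of all probe sets were called higher in Mixer-MO and 0.0323% lower, and the lowest adjusted p among the members was 0.273. At an unadjusted p below 0.05 there were 7 members, 5 higher and 2 lower in Mixer-MO, against 9.52% of all probe sets. Of the 53, 35 were higher in Mixer-MO, and the median difference was 0.20 against -0.03 over all probe sets. This median was 0.01 without Mixer-MO replicate 2, 0.11 without Cerberus-Short replicate 1 and 0.05 with the letter as a fixed block.

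The largest of these differences was that of Xl.6282.1.S1_at, which read 11.08 and 10.97 in Mixer-MO and 8.82, 8.50 and 11.05 in Cerberus-Short (log2 1.57, SE 0.68, adjusted p = 0.472). Cerberus-Short replicate 3 lay within the Mixer-MO range and the other replicates well below it, so that the groups overlapped. Xl.10200.1.A1_at differed by 1.37 (SE 0.39, adjusted p = 0.273), and without Cerberus-Short replicate 3 by 1.76 (adjusted p = 0.0307), which was the one call in this comparison under any array left out. In the other direction, Xl.10419.1.A1_at read 6.52 and 6.36 in Mixer-MO and 6.81, 6.65 and 7.85 in Cerberus-Short (log2 -0.67, SE 0.32, adjusted p = 0.514), and Xl.975.1.S1_at read 5.31 and 4.31 against 5.23, 6.41 and 4.41 (log2 -0.54, SE 0.39, adjusted p = 0.700).

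In space, the rule removed only strong differences between vegetal and animal explants. Of the 73 probe sets that met its other conditions, 11 were higher in Vegetal endoderm by 1 or more and 9 were higher in animal caps. Among the 53 members the vegetal minus animal difference, bounded by the rule, ran from -0.99 to 0.98 with a median of 0.09, and it was above 0 for 34. Its median was -0.31 for the 10 members higher at stage 18, 0.29 for the 21 higher in the egg and 0.26 for the 22 not called. Signal over all probe sets was itself shifted. Its median distance from the control mean was 0.02 and 0.15 in the Vegetal endoderm arrays and -0.01, 0.02 and -0.04 in the animal caps. A lean of the members or classes beyond this shift was not tested.

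The Equatorial explants, which the rule did not use, were set against the mean of the 5 animal cap and Vegetal endoderm arrays, which it did use. The differences ran from -1.79 to 0.90 with a median of 0.05 (-0.06 over all probe sets), which was -0.05 with the letter as a fixed block, -0.01 without animal cap replicate 3, 0.10 without animal cap replicate 2 and 0.12 without Equatorial replicate 1. No member was called higher in Equatorial tissue by limma, where 0.303% of all probe sets were, and 1 was called lower, where 0.110% were. At an unadjusted p below 0.05 there were 2 members, against 6.01% of all probe sets. The member called was Xl.975.1.S1_at, which read 4.31 and 4.42 in Equatorial tissue, 6.15, 5.99 and 6.75 in the animal caps and 5.85 and 6.05 in Vegetal endoderm, with no overlap.

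The Equatorial level of Xl.975.1.S1_at was 3.46-fold lower (log2 -1.79, SE 0.36, adjusted p = 0.0168). The adjusted p was 0.311 without Equatorial replicate 1 and 0.324 without replicate 2. Whole control gastrulae, at 4.70 ± 0.29 (SD, n = 9), were nearer to the Equatorial explants than to the others. In Sox17-MO embryos it read 5.90, 5.69 and 6.01, and at stage 18 it read 6.98, 8.02, 7.26 and 7.81.

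Other probe sets of the same clusters showed how far a member's difference was shared. The clusters of the members held 11 further probe sets. Xl.4515.1.S1_at was far brighter than its partner Xl.4515.1.S2_a_at, at a control mean of 12.30, and its Sox17-MO difference was -0.05 against 2.26. The 3 partners of Xl.25540.3.A1_at differed by -0.18, -0.02 and -0.09 against 1.08 for the member, at control means of 9.69 to 12.03. The partner of Xl.3189.2.A1_at differed by -0.18 against 0.83. The change from egg to stage 18 was not always shared either. For Xl.4515.1.S1_at it was 1.15 on the log2 scale, against 5.05 for the member. The partners of Xl.25540.3.A1_at changed by 1.51, 0.65 and 0.64 against 3.77, and that of Xl.3189.2.A1_at by 2.40 against 1.61.

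In other clusters the partners' differences had the same sign as the member's, though some were small and the groups overlapped. Xl.702.2.S1_at differed by 0.95, against 0.90 and 0.71 for the members of its cluster, and stayed out because its lowest Sox17-MO array was 0.03 under the highest control. Xl.699.1.S1_s_at differed by 0.50 against 0.75 for Xl.699.1.S1_at, with no overlap between the groups. The partners of Xl.15840.1.A1_at differed by 0.23 and 0.10 and those of Xl.2279.1.S1_at by 0.35 and 0.14. For these partners Sox17-MO and control arrays overlapped. The lowest Sox17-MO array minus the highest control was -1.72 and -1.44 in cluster Xl.15840 and -0.24 and -0.28 in cluster Xl.2279. From egg to stage 18, Xl.702.2.S1_at changed by -3.87, against -4.04 and -4.10 for the members of its cluster. The change was 4.55 for Xl.699.1.S1_s_at against 2.12 for the member, and 3.90 and 2.01 against 0.62 in cluster Xl.15840. In cluster Xl.2279 the partners changed by 0.30 and 0.38 and the member by -1.41. Names with A1 in their last part made up 49.1% of the members and 54.7% of all probe sets.

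**Figure D5:**
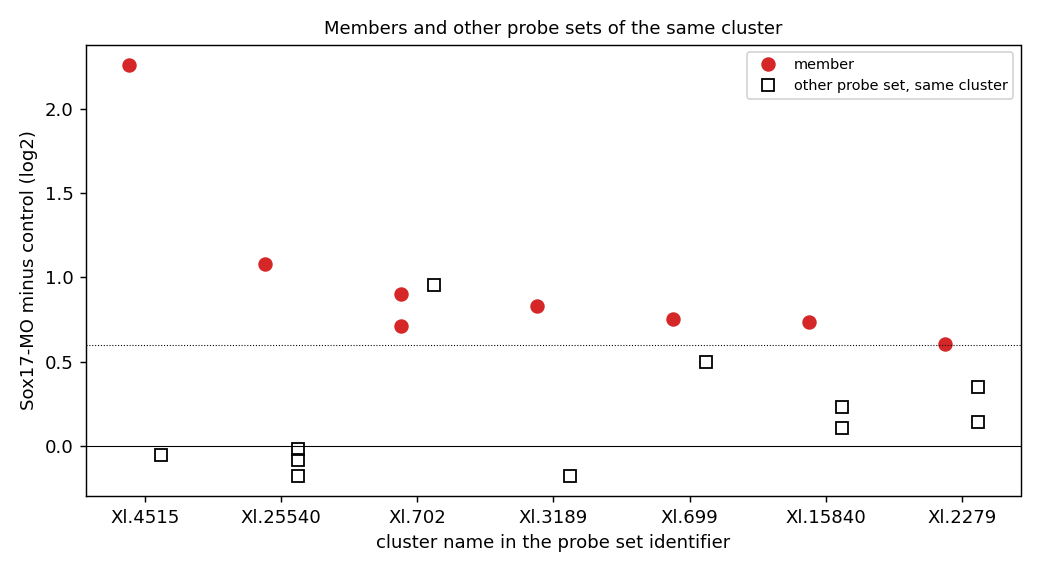
Sox17-MO minus control difference (log2, vertical axis) of each member that shares its cluster with other probe sets (filled) and of those partners (open), by cluster (horizontal axis), with the minimum of 0.6 dotted. The partners of Xl.4515.1.S2_a_at and Xl.25540.3.A1_at lie near 0 while the members lie at 2.26 and 1.08.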

How the data were processed

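Expression was measured on Affymetrix Xenopus laevis arrays, 1 per sample. The authors deposited 1 linear intensity per probe set and array, and per the deposited checklist GeneChip Operating Software 1v4, GeneSpring 7.1 and RMA were used. In the deposited table some intensities of 1000 or more appeared to have lost their digit-group mark, and they were restored by a numeric rule. Of 483941 values, 18216 (3.76%) were multiplied by 1000. In all, 45801 values could be read either way, and they were multiplied or kept by the level of the other arrays, so these counts overlap. In 20 probe sets no array gave a level, and all values were kept as deposited. Values that could be read either way were held by 6 of the members, from 1 of 31 in Xl.6282.1.S1_at to 25 in Xl.26360.1.A1_at. Xl.702.1.S1_at and Xl.702.1.S1_a_at held 3 each. Values were then taken to log2. Affymetrix control probe sets (120) were left out of the tests.

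A linear model over the 9 groups was fitted to all 15491 probe sets with limma 3.58.1 in R 4.3.3 (22 residual degrees of freedom), and p-values were adjusted over all of them by the Benjamini-Hochberg method. The procedure was tested on simulated data with independent noise on each array. That test does not cover the correlation between arrays of the same letter given below. Groups were taken from the condition names in the labels. Eggs were compared with stage 18, Mixer-MO with Cerberus-Short, and Equatorial tissue with the mean of the 5 cap and vegetal arrays. The precision is limited by the number of arrays. The members and lists were chosen with earlier results of these data known.

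Members named in the text are the 12 with the largest Sox17-MO difference, the 3 nearest the threshold on either side, the 4 most changed in each direction between egg and stage 18, the 2 most changed in each direction between Mixer-MO and Cerberus-Short, any called in Equatorial tissue, and the 4 of highest control level. Partners in the same cluster, Xl.10200.1.A1_at and the probe sets without overlap in Mixer-MO were named after their values were seen. Gene lists planned for this work could not be applied, because 0 probe sets matched a gene. Replicate numbers did not pair the samples: the residuals of Sox17-MO and control arrays with the same number correlated at -0.48, -0.25 and 0.07. The alternatives were quantile normalization, median centring, a pseudocount of 16, a filter removing the 40% of probe sets with the lowest signal, a variance trend, array weights, only the groups compared, no assigned values, the title letter or the replicate number as a block, other thresholds of the rule, and each array left out in turn.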

Additional observations from a re-analysis of the deposited data

Results flagged for a closer look

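Among the members named in the text, 50 groups of 4 to 9 arrays were examined for an array far from the others of its group by Dixon's criterion, which chance meets in about 1 of 20 groups, and 4 were marked. For Xl.975.1.S1_at, control replicate 8 was the highest of the stage 11 controls at 5.34, with the next at 4.78. Control replicate 9 was the lowest for the other 3. It read 7.44 for Xl.5194.1.S1_at, where the next control read 8.15. For Xl.702.1.S1_a_at it read 9.84 against 10.57, and for Xl.2279.1.S1_at 7.74 against 8.23. These 3 members belong to the 21 that were higher in the egg than at stage 18, and replicate 9 shares the title letter f with Sox17-MO replicate 2.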

How the results depend on the processing

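The number of members, 53, was 47 to 238 with 1 array left out, and 232 when the Sox17-MO array only had to exceed the control of the same letter in each of 3 pairs. The 21 members called for Sox17-MO over control, a contrast the rule used, became 34 with the title letter as a random effect, 43 with array weights, 15 with the letter as a fixed block (10 of them among the 21), and 0 to 20 with 1 array left out. With a replicate block the count was 3, where the numbers do not pair the samples; the residuals correlated instead between arrays of the same letter, at 0.74 (C), 0.73 (f) and 0.61 (G). For eggs against stage 18, 31 members were called, 27 to 33 under every alternative run, and 30 with a replicate block. The letter as a fixed block was not run there, because all eggs share a letter. The 1 member called in Equatorial tissue, Xl.975.1.S1_at, is removed by the filter on low signal and so was not tested there (0 calls). Its call was lost (0 calls) with a replicate block, with the letter as a fixed block and, in the range of 0 to 1, without either Equatorial array. For Mixer-MO against Cerberus-Short there were 0 calls among the members, and 1 without Cerberus-Short replicate 3. Over all probe sets this comparison had 34 calls, 0 with only the groups compared and 1 with the letter as a fixed block. The 1 call for Mixer-MO over control was lost (0 calls) with only the groups compared or with the letter as a fixed block, and the count was 0 to 1 with 1 array left out. Calls for Cerberus-Short over control were 0 under every alternative run. Groups of 2 or 3 arrays limit all of these tests.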
